A study of Mus musculus with 21 samples.

Results

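Kv2, Kv3 and Kv4 potassium channels were examined through 7 genes for their pore-forming subunits, taken by symbol: Kcnb2 of the Kv2 family, Kcnc1, Kcnc2 and Kcnc4 of the Kv3 family, and Kcnd1, Kcnd2 and Kcnd3 of the Kv4 family. All 7 were found among the 19399 genes that occur in each of the 4 deposited tables. Other genes of these families were not analysed here. The rule used symbols alone and no measured value.

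These channels open when the membrane depolarizes and let potassium leave the cell. Kv2 channels carry a slowly inactivating delayed rectifier current and sit mainly on the soma and proximal dendrites. Kv3 channels open at strongly depolarized potentials and close fast, which shortens the action potential and allows rapid firing, a property best known in parvalbumin interneurons. Kv4 channels carry the fast, transient A-type current of the somatodendritic membrane, and they assemble with KChIP proteins and with dipeptidyl peptidase-like proteins that set their gating and surface number.

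RNA came from 21 primary cortical neuron cultures prepared from newborn mouse pups, in 4 groups: 5 cultures of Tau neurons with the vehicle DMSO, 5 of Tau neurons with AdipoRon, 5 of WT neurons with DMSO and 6 of WT neurons with AdipoRon. Tau neurons carry Tg (hTau P301S), a mutant human tau cDNA under the prion promoter, and received pre-formed fibrils (3 μg/mL) on day 7, followed by 18 more days in culture. WT neurons carry no transgene. The labels describe fibrils for transgenic neurons alone, whereas the paper's account of the RNA samples dates both genotypes from seeding. Whether WT cultures were seeded is therefore unclear, and if they were not, genotype and seeding cannot be told apart. All cultures received 1 μM cytosine arabinoside against glia, and AdipoRon, a small-molecule activator of adiponectin receptors, or DMSO was given for 24 h. The sample tags and the paper give 10 μM AdipoRon, while the treatment text in the labels gives 10 mM. The study's reporting summary states that the same animal supplied samples to each treatment, so AdipoRon and DMSO cultures may share animals. Sample titles number the cultures within a group, but no label says that equal numbers share an animal. The values used here are group means. For depth, the study states an average read number per sample, and the tables hold no total for any culture.

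Each deposited table gives, for each gene, 1 mean level over the cultures of 2 groups, as log2 CPM from edgeR, where CPM is a gene's read count scaled to the size of its library. The means cover the 10 DMSO cultures of both genotypes, the 11 AdipoRon cultures of both genotypes, the 10 Tau cultures with either treatment, and the 11 WT cultures with either treatment. The labels tie no sample to the WT table, and 6 WT AdipoRon samples are tied to the DMSO table, so what the WT table covers was taken from its name and checked on the values. If each mean covers the groups stated, the DMSO and AdipoRon means, weighted by their cultures, must give the same overall level as the Tau and WT means. Over 19399 genes these routes differed by -8.6e-04 on the log2 scale on average (SD 0.0049 across genes) and by at most 0.0095 for the 7 channel genes. Pairing the tables in the other ways gave SDs of 0.246 and 0.183. Exchanging the tables within a pair was not tried, so which of Tau and WT is which rests on names and labels.

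Differences between the AdipoRon and DMSO means, and between the Tau and WT means, are therefore differences between sets of cultures that share no sample, set across tables that were normalized separately. They average over both genotypes or both treatments, so a response to AdipoRon in Tau neurons could not be told apart from one in WT neurons. Group sizes are unequal (6 WT AdipoRon cultures, 5 in each other group). Each difference therefore also carries a small part of the other factor. The authors' fold changes and p-values were not used, and the means carry no spread, so no difference below has a replicate check and none was tested. A difference of at least 1.5-fold (0.58 on the log2 scale) is used as a mark of size, not of significance.

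Of the 7 channel genes, 2 lay past this mark, and both were lower with AdipoRon: Kcnd2 and Kcnb2. Kcnd1, Kcnc1 and Kcnc4 were higher with AdipoRon by less than 1.5-fold, and Kcnc2 and Kcnd3 differed by less than 0.1 on the log2 scale. Of all 19399 genes, 4.88% were lower and 2.90% were higher with AdipoRon by more than 1.5-fold, against 2 and 0 of the 7 channel genes. Among the 15441 genes with a log2 CPM of at least 0 in every table, the 7 included, these shares were 3.68% and 2.52%. Genes with a symbol starting in Kcn and a log2 CPM of at least 0 in every table numbered 73, the 7 channel genes included. Among these 73 genes, 26 were lower and 1 was higher with AdipoRon past the same mark, so lower means were not particular to the 7 genes. The median AdipoRon minus DMSO difference was -0.04 over the 7 genes and 0.03 over all genes (log2).

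**Figure D1:**
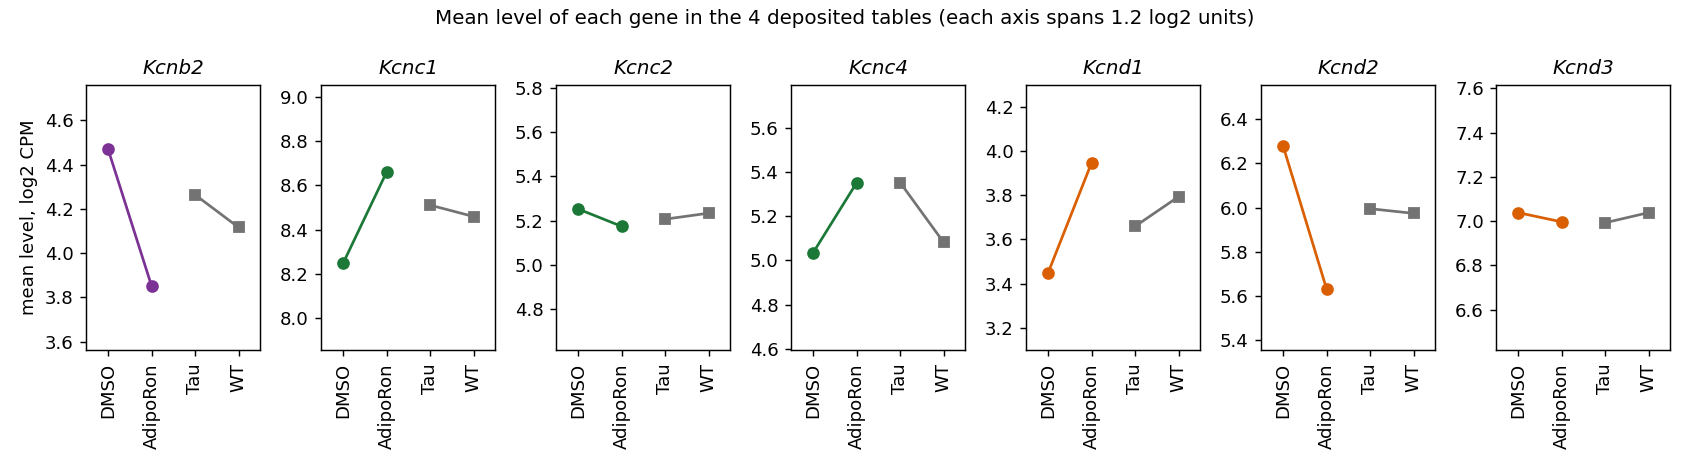
Mean level of each of the 7 channel genes (log2 CPM, y axis; every axis spans 1.2 log2 units) in the DMSO, AdipoRon, Tau and WT tables, where lines join the means of cultures that share no sample. Kcnb2 and Kcnd2 are lower in the AdipoRon than in the DMSO mean, Kcnc1, Kcnc4 and Kcnd1 are higher, and the means have no error bars because the files give no spread.

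RefSeq promoter windows (build GRCm38.p6, from 250 bases before to 50 after a transcription start) matched 5 of the 7 genes: Kcnc1, Kcnc2, Kcnc4, Kcnd2 and Kcnd3. Kcnb2 and Kcnd1 had no entry. Shown are the windows of Kcnd2, Kcnc1 and Kcnc4, picked after their levels were seen. The Kcnd2 mean was lower with AdipoRon, and the Kcnc1 and Kcnc4 means were higher. These windows lie at chr6:21215096-21215395 (plus strand), chr7:46396218-46396517 (plus strand) and chr3:107458849-107459148 (minus strand). Capitals mark the short cAMP response element TGACG and the GC box GGGCGG on either strand.
Kcnd2 promoter: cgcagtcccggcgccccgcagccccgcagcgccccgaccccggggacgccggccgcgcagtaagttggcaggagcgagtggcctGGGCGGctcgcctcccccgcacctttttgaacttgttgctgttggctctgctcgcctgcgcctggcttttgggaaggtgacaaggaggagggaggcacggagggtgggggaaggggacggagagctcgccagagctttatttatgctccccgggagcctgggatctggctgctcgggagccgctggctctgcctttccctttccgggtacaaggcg
Kcnc1 promoter: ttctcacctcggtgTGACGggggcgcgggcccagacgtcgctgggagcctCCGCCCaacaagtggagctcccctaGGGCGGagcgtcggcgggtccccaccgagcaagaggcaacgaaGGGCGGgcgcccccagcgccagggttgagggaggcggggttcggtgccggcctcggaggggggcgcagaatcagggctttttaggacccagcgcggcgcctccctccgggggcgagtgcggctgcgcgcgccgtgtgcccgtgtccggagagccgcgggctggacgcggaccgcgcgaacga
Kcnc4 promoter: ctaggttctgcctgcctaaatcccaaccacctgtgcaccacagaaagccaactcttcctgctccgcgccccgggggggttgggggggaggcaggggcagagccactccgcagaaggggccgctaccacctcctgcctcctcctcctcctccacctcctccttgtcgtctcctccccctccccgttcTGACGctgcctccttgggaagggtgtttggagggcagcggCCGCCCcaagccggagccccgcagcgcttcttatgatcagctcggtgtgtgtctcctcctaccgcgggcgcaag

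The short element TGACG (or CGTCA on the other strand) was found once each in the Kcnc1 and Kcnc4 windows and in none of the windows of Kcnd2, Kcnd3 and Kcnc2. It occurs in 20.8% of the 32851 RefSeq promoter windows. Kcnc1 holds 3 GC boxes (GGGCGG or CCGCCC), Kcnc4 and Kcnd2 hold 1 each, and so does 1 of the 4 windows of Kcnc2, where 35.7% of all windows hold any. The full element TGACGTCA, which contains the short one, was in none of the 5 genes' windows and in 1.79% of all windows. The AP-1 site TGAGTCA (5.20% of all windows), the E-box CACGTG (7.15%) and TATAAA (13.6%) were also in none of them. The GC content of the windows was 74.7% for Kcnc1, 68.7% for Kcnd2 and 66.7% for Kcnc4, and the median over all windows was 52.7%. These matches describe the letters of the windows only, and binding was not measured. The motifs were chosen after the levels were seen, and Kcnb2 and Kcnd1 had no window. A link between a motif and the direction of a difference was not tested.

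Kcnd2 encodes the Kv4 subunit that carries much of the A-type current in the dendrites of pyramidal neurons. Its mean level was 6.28 log2 CPM (77.7 CPM) with DMSO and 5.63 (49.6 CPM) with AdipoRon, a difference of -0.65 on the log2 scale. The AdipoRon mean was thus 36.2% below the DMSO mean, and 4.09% of all genes had a difference as low or lower. In contrast, the Tau mean of Kcnd2 (63.8 CPM) and its WT mean (62.9 CPM) differed by 0.02 on the log2 scale.

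Kcnd3, which encodes a Kv4 subunit found in interneurons and in the heart as well as in pyramidal cells, had nearly equal means in all 4 tables. It stood at 131 CPM with DMSO, 128 CPM with AdipoRon, 127 CPM in Tau and 131 CPM in WT cultures. Kcnd1, the scarcest Kv4 gene here, had a mean of 10.9 CPM with DMSO and 15.4 CPM with AdipoRon, so its AdipoRon mean was 41.2% higher (log2 difference 0.50). For Kcnd1, 4.45% of all genes had a difference as high or higher. Its mean was 12.6 CPM in Tau and 13.9 CPM in WT cultures, with a Tau minus WT difference of -0.13 (log2). The Kv4 genes thus had AdipoRon means on both sides of the DMSO mean.

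Levels of the Kv4 genes were compared with each other only after division by transcript length, here the merged exons of all transcripts in the GENCODE annotation. With DMSO, Kcnd2 and Kcnd3 stood at 13.4 and 13.2 CPM per kb and Kcnd1 at 2.07 CPM per kb. With AdipoRon, these levels were 8.56, 12.8 and 2.92 CPM per kb. As a share of the sum over these 3 Kv4 genes, Kcnd2 made up 46.8% with DMSO and 35.2% with AdipoRon, whereas Kcnd3 made up 46.0% and 52.8% and Kcnd1 the remainder. The shares of Kcnd2 in the Tau and WT means were 42.1% and 40.7%. When the longest transcript was used as length, Kcnd3 led Kcnd2 with DMSO as well, at 53.0% against 40.7%, so the order of these 2 genes with DMSO depends on the length chosen. The sum over the 3 genes was 28.7 CPM per kb with DMSO and 24.3 CPM per kb with AdipoRon, a log2 difference of -0.24.

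**Figure D2:**
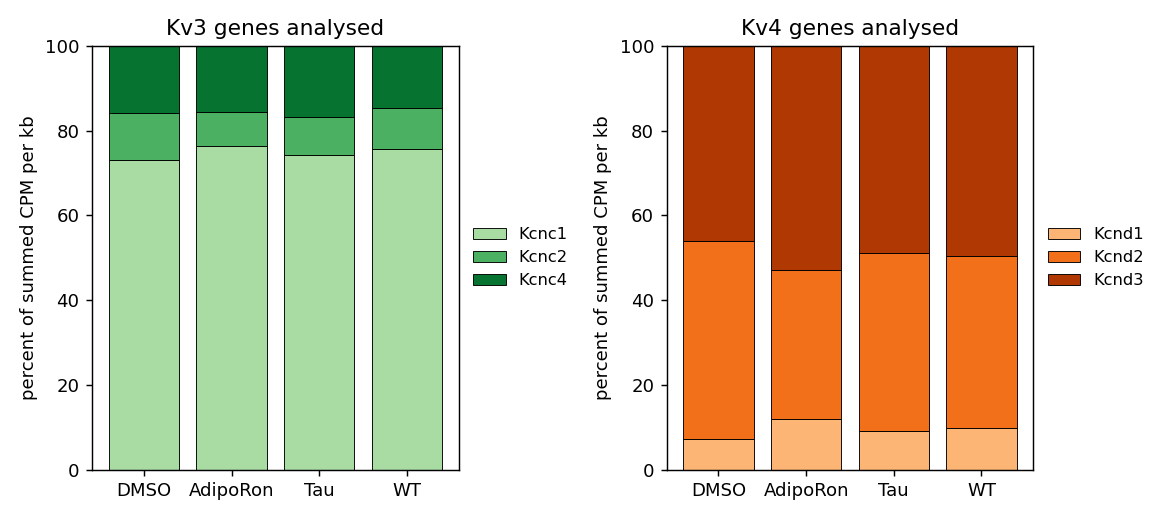
Share of each gene in the summed CPM per kb (percent, y axis; lengths from merged exons) of the 3 Kv3 genes and of the 3 Kv4 genes analysed, in the DMSO, AdipoRon, Tau and WT means. Kcnc1 makes up over 70% of the Kv3 sum in every mean, while Kcnd2 takes 46.8% of the Kv4 sum with DMSO and 35.2% with AdipoRon.

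Among the Kv3 genes, Kcnc1, which encodes the subunit typical of fast-spiking cells, was the most abundant of the 7 genes per kb. Its promoter window held more GC boxes than those of the other 4 genes matched, and also had the highest GC content (74.7%). A link between these and its level was not tested. The mean of Kcnc1 was 304 CPM (8.25 log2 CPM) with DMSO and 405 CPM (8.66) with AdipoRon, so the AdipoRon mean was 33.1% higher. The log2 difference of 0.41 was matched or exceeded by 6.84% of all genes. The Tau mean (365 CPM) and the WT mean (352 CPM) of Kcnc1 differed by 0.05 on the log2 scale.

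Kcnc4, whose product forms rapidly inactivating Kv3 channels, had means of 32.8 CPM with DMSO and 40.8 CPM with AdipoRon (log2 difference 0.32). It was also the channel gene with the largest difference between genotypes, at 40.8 CPM in Tau and 33.8 CPM in WT cultures, a log2 difference of 0.27 that 10.3% of all genes matched or exceeded. Kcnc2, which encodes another Kv3 subunit of interneurons, had means of 38.1 CPM with DMSO and 36.1 CPM with AdipoRon, with a log2 difference of -0.08. Its Tau and WT means were 36.9 and 37.6 CPM. Of the summed Kv3 level per kb, Kcnc1 made up 73.1% with DMSO and 76.3% with AdipoRon, Kcnc4 15.9% and 15.5%, and Kcnc2 the remainder. This sum was 40.9 CPM per kb with DMSO and 52.1 CPM per kb with AdipoRon (log2 difference 0.35).

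Kcnb2 encodes a Kv2 delayed rectifier subunit. It had a mean of 22.2 CPM (4.47 log2 CPM) with DMSO and 14.4 CPM (3.85) with AdipoRon, which is 34.9% lower (log2 difference -0.62). Differences as low or lower were found for 4.50% of all genes. The mean of Kcnb2 was 19.2 CPM in Tau and 17.3 CPM in WT cultures (log2 difference 0.15). Per kb it was the scarcest of the 7 genes, at 1.03 CPM per kb with DMSO.

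Between genotypes, none of the 7 genes differed by as much as 1.5-fold, whereas 2.14% of all genes were higher and 2.65% lower in Tau than in WT cultures past that mark. Among the 15441 genes with a log2 CPM of at least 0 in all 4 tables, which include the 7 channel genes, these shares were 0.479% and 2.53%. The 7 Tau minus WT differences ran from -0.13 (Kcnd1) to 0.27 (Kcnc4), with 4 above and 3 below 0. Their median was 0.02, and that of all genes was -8.1e-04 (log2).

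**Figure D3:**
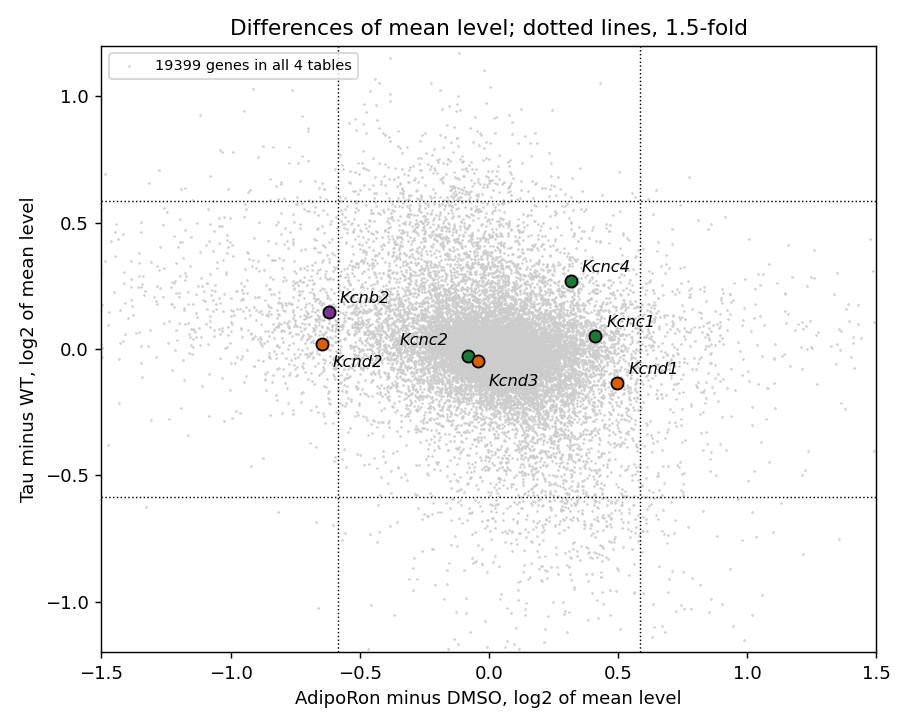
Difference of the AdipoRon and DMSO means (x axis, log2) against that of the Tau and WT means (y axis, log2) for the 7 channel genes (coloured by family: Kv2 purple, Kv3 green, Kv4 orange) and for 19399 genes (grey; 218 lie beyond the axes). Kcnd2 and Kcnb2 lie left of the dotted 1.5-fold line, and all 7 genes lie between the horizontal 1.5-fold lines.

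Genes whose products assemble with Kv4 channels had AdipoRon means mostly below their DMSO means. Of 6 auxiliary subunit genes (Kcnip1 to Kcnip4, Dpp6 and Dpp10), 5 were lower with AdipoRon, with a median log2 difference of -0.29. Past 1.5-fold lower was 1 of them, beside 4.88% of all genes. Kcnip1, which encodes a KChIP common in interneurons, was lowest, with means of 101 CPM for DMSO and 65.9 CPM for AdipoRon (log2 difference -0.61). Kcnip3, whose product is also known as the transcriptional repressor DREAM, was highest at 97.6 and 100.4 CPM (0.04). Between Tau and WT means, these 6 genes differed by -0.15 to 0.19 (log2). Lower AdipoRon means were not particular to them. They were also found for 8 of 9 neuronal markers (median -0.22) and 50 of the 73 Kcn genes (median -0.37). These 73 genes include Kcnip1 to Kcnip4. Among the 5 lower auxiliary genes, Kcnip2 differed by only -0.02.

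Of 13 listed Kv2 partners, 12 were in all tables. They comprised 9 silent subunits, which form no channel alone but alter Kv2 channels, the adhesion protein gene Amigo1, and the endoplasmic reticulum anchors Vapa and Vapb. Their median AdipoRon minus DMSO difference was -0.50 (log2), with 5 past 1.5-fold lower and 1 past it higher, all of them silent subunits. The silent subunit gene Kcnv1 was lowest, with means of 80.2 CPM for DMSO and 7.05 CPM for AdipoRon (log2 difference -3.51). Kcng4 was highest, at 3.59 and 4.49 log2 CPM (difference 0.91). Amigo1, Vapa and Vapb differed by -0.16, -0.14 and -0.04. With AdipoRon, 4.88% of all genes were lower and 2.90% higher past 1.5-fold. The 73 Kcn genes, which include the silent subunits, had 26 lower and 1 higher past it. Of 5 genes for Kcne accessory subunits, 1 was in all tables, Kcne4, at 0.747 CPM with DMSO and 1.23 CPM with AdipoRon.

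The genes most like Kcnd2 in both differences, by Euclidean distance among 72 other genes with a symbol starting in Kcn and a log2 CPM of at least 0 in all 4 tables, were Kcnab1, Kcnk12 and Kcnip1 (distances 0.05, 0.05 and 0.07). Their AdipoRon minus DMSO differences were -0.67, -0.69 and -0.61, and their Tau minus WT differences 0.06, 0.05 and 0.08 (log2). The likeness rests on 4 means of overlapping sets of cultures.

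**Figure D4:**
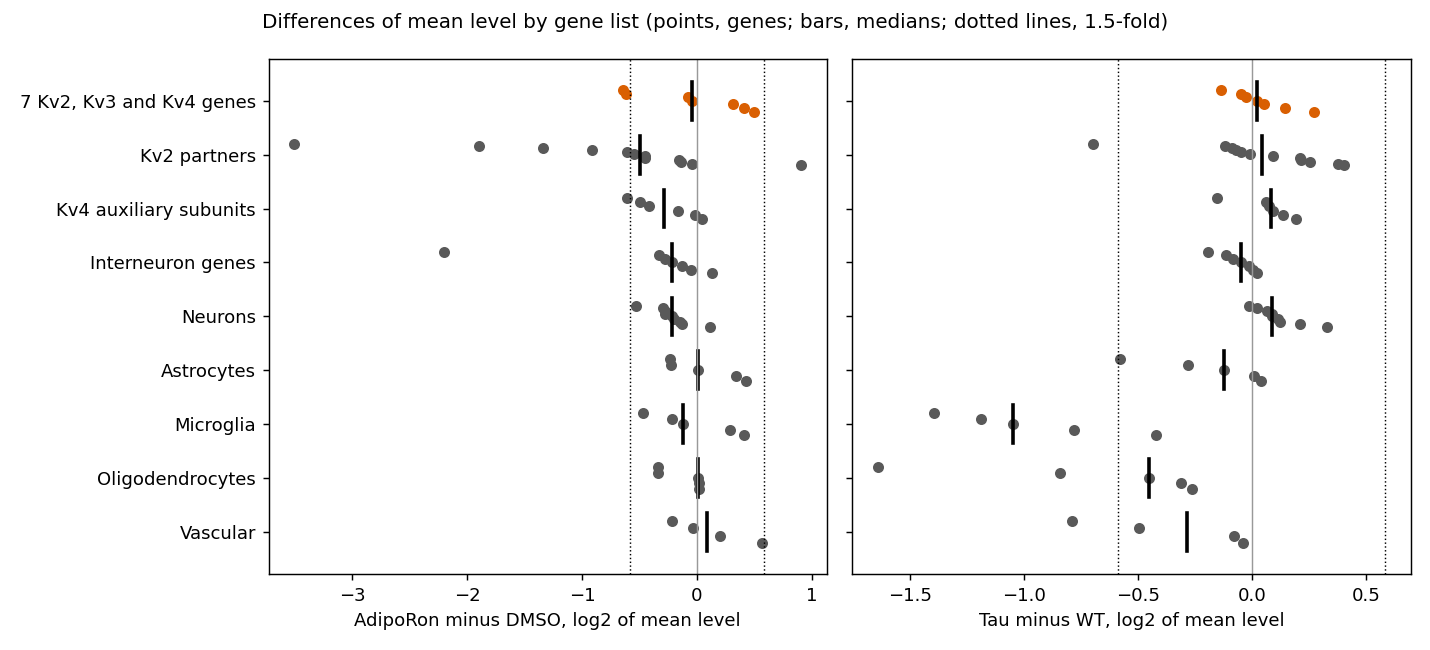
Differences of mean level (log2, x axes) between AdipoRon and DMSO (left) and between Tau and WT (right) for the 7 channel genes (orange) and for genes of partner and cell type lists (grey; bars are medians, dotted lines 1.5-fold). On the left, the 7 genes lie on both sides of 0, and Kv2 partners and Kv4 auxiliary subunits lie mostly below 0, as do interneuron and neuronal genes. All 5 microglia markers lie below 0 on the right, as do all oligodendrocyte and vascular markers shown.

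RNA of whole cultures cannot tell fewer cells of a type from less RNA per cell. The defining markers of neurons were present, with summed means of 9 neuronal markers between 3840 and 4406 CPM over the 4 tables. Glial RNA was present as well. These sums were not divided by length and cover lists of different sizes, so they are given for comparison between tables and not between cell types. The 5 astrocyte markers summed to between 3355 and 3683 CPM, 5 oligodendrocyte markers to between 518 and 791 CPM and 5 microglia markers to between 147 and 299 CPM. The 4 of 5 vascular markers in all tables summed to between 60.5 and 85.4 CPM, with the endothelial gene Pecam1 at 0.492 to 0.505 CPM. With AdipoRon, 8 of 9 neuronal markers had lower means, with a median log2 difference of -0.22 and none past 1.5-fold, and the part of neuronal RNA content in the channel differences was not tested. Slc17a6 and Slc17a7, which encode vesicular glutamate transporters, had the lowest and highest differences of that list (-0.53 and 0.11). Of the 5 astrocyte markers, 3 had higher and 2 lower means with AdipoRon, with a median log2 difference of 0.01. Aldh1l1 (0.42) and Gfap (0.34) were higher, Slc1a3 (-0.24) and Aqp4 (-0.23) were lower, and S100b differed by 0.01.

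Kv3 subunits are typical of interneurons, and 7 interneuron genes were therefore listed, of which Gad1 and Gad2 also stand in the neuronal list. Of these 7 genes, 6 were lower with AdipoRon (median log2 difference -0.22), among them Vip at 47.5 CPM for DMSO and 10.3 CPM for AdipoRon. Pvalb, the marker of fast-spiking cells, had 140 CPM with DMSO and 153 CPM with AdipoRon, a log2 difference of 0.13 beside 0.41 for Kcnc1. Between genotypes, 8 of 9 neuronal markers were higher in the Tau means (median 0.09, log2). In turn, all 5 microglia markers (median -1.05) and all 5 oligodendrocyte markers (median -0.45) were lower in the Tau means. So were the 4 vascular markers found (median -0.29), of which 2 reach 0 log2 CPM in every table. Of the 5 astrocyte markers, 3 were lower and 2 higher (median -0.12). The median over all genes was -8.1e-04. Channel gene differences were at most 0.27, and the part of these cells in them was not tested.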

How the data were processed

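Polyadenylated RNA of 21 mouse cortical neuron cultures was sequenced, and the sample titles gave each culture's group. According to the methods, the authors trimmed reads, aligned them to mm10 with STAR, quantified them with RSEM and compared groups by the GLM method of edgeR. A different build, GRCm39, is named elsewhere in the paper, and table names contain Rsubread. The authors deposited 4 tables of comparisons, whose log2 CPM column holds the mean level of a gene over the cultures of a table; library scaling, prior count and gene filter are not stated. The log2 fold changes, likelihood ratios, p-values, false discovery rates and calls in these tables are the authors' own comparisons and were not used.

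With pandas 2.3.3 and numpy 2.4.6 in Python 3.11.15, log2 CPM means were subtracted between the tables that share no sample (AdipoRon minus DMSO, Tau minus WT), over genes present in all 4. A gene was counted past 1.5-fold. The means carry no replicate spread, so no test or interval was computed and the precision of a difference is unknown. Totals per culture are not in the tables, and the average read number that the study states was not used. Code was tested on simulated data. Lengths came from GENCODE vM39, promoters from RefSeq. Alternatives were centring on the median of all genes, a minimum of 0 log2 CPM in all tables, a pseudocount of 1 CPM, a 2-fold mark and the longest transcript as length. Named genes are the 7 channel genes, the highest and lowest AdipoRon minus DMSO difference of each partner list among genes at that minimum, and the 3 Kcn genes nearest to the channel gene with the largest difference. Other genes named, and the promoter motifs, were chosen after values were seen. The members and lists were chosen with earlier results of these data known.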

Additional observations from a re-analysis of the deposited data

How the results depend on the processing

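Under centring, the AdipoRon minus DMSO and Tau minus WT differences of the 7 channel genes kept their direction and their side of the 1.5-fold mark. The minimum of 0 log2 CPM leaves their values as they are, and a pseudocount cannot turn a direction, so neither bears on it. With the pseudocount of 1 CPM, Kcnb2 (-0.59) and Kcnd2 (-0.64) stayed past 1.5-fold. At a 2-fold mark, 0 channel genes were counted lower with AdipoRon in place of 2. Of all genes, 562 were higher and 947 lower with AdipoRon past 1.5-fold. With the pseudocount these counts were 292 and 543, and at 2-fold 132 and 338. With the minimum level, 389 of 15441 genes were higher and 569 lower. Between Tau and WT, 415 were higher and 514 lower, against 31 and 222 with the pseudocount and 19 and 100 at 2-fold. With the minimum level, 74 were higher and 390 lower. The share of higher genes among those counted between Tau and WT was 44.7%, 15.9% with the minimum level and 12.3% with the pseudocount. The minimum level leaves scarce genes out. No replicate could be left out, and no paired analysis was possible because the values used are means over whole groups of cultures. Limits set by depth were not computed.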

Other observations

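Over 73 genes with a symbol starting in Kcn and a log2 CPM of at least 0 in all 4 tables, the median AdipoRon minus DMSO difference was -0.37 (log2), against 0.03 over all genes. Of these 73 genes, 50 had a lower mean with AdipoRon, 26 of them past 1.5-fold, and 1 was higher past 1.5-fold. Among all 15441 genes at that minimum level, 3.68% were lower and 2.52% higher with AdipoRon past 1.5-fold. The median Tau minus WT difference of the same 73 genes was 0.08, with 2 past 1.5-fold lower and 0 higher. Of the 15441 genes, 2.53% were lower and 0.479% higher in Tau past 1.5-fold, so the count of 2 lower is near that share.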
